A study of Mus musculus with 2 samples.

Results

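MHC class I presentation was followed here through 10 genes: the heavy chains H2-K1, H2-D1, H2-T23 and H2-M3, the light chain B2m, the peptide transporter subunits Tap1 and Tap2, the loading chaperone Tapbp, the trimming peptidase Erap1 and the transactivator Nlrc5. They were picked by symbol, and all 10 have a row among the 50608 rows of the deposited FPKM table. FPKM counts sequenced fragments for each kilobase of a gene, relative to the depth of sequencing. The table holds 1 library of mouse peritoneal macrophages given GW3965, a compound that activates the liver X receptors (LXRs, nuclear receptors for oxidised cholesterol), and 1 library given the solvent DMSO. Both came from C57BL6J animals of both sexes, pooled, with a stage recorded as embryonic day 15.5. No allele, stimulus, dose or treatment time is stated in those labels. One column carries the name of the DMSO sample. The other begins like the description of the GW3965 sample and ends differently, so every value called GW3965 below rests on that partial match. Each group has a single library, so no difference below has a check by replicates and none was tested.

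Class I molecules show peptides from inside the cell to CD8 T cells and natural killer cells. The proteasome cuts proteins, the Tap1 and Tap2 dimer pumps the peptides into the endoplasmic reticulum, Erap1 trims them, and tapasin (Tapbp) holds an empty heavy chain and beta 2 microglobulin (B2m) at the transporter until a fitting peptide binds. Interferon and the transactivator Nlrc5 raise most of these genes together, through a shared promoter module. Macrophages carry class I at rest, while LXRs are known in them as inducers of cholesterol export and fatty acid synthesis.

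None of the 10 genes differed by 1.5-fold between the libraries. All were measured, meaning a mean of at least 1 FPKM, and ratios were taken on the log2 scale after adding 1 FPKM to each value, which understates the change of low genes. Of 11889 measured rows 3.46% were higher by 1.5-fold or more in the GW3965 library and 0.0757% were lower, against 0 of 10 class I genes in either direction, so the count of 0 is near the share of all rows. The median log2 ratio of the 10 genes was 0.18, and that of all measured rows was 0.24. Ratios from here on are therefore also given after subtracting that median and are then called centred. Centred, 1.38% of measured rows were higher and 0.336% lower by 1.5-fold, and again 0 of the 10 genes passed in either direction. The centred median of the 10 was -0.06, with 3 genes above the median row and 7 below it. As deposited, 9 of the 10 stood above a ratio of 1. With both libraries scaled to the same upper quartile 2 stood above 1, and with the same sum of FPKM all 10 did, so the direction of most members depends on the scaling.

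The same libraries did differ at LXR targets. All 6 listed targets were higher by 1.5-fold with and without centring, with a median centred log2 ratio of 1.72. Abca1, the cholesterol exporter, had 261 FPKM in GW3965 and 19.9 FPKM in DMSO. These rows were chosen with earlier results known and serve only to set the scale beside the class I genes.

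**Figure D1:**
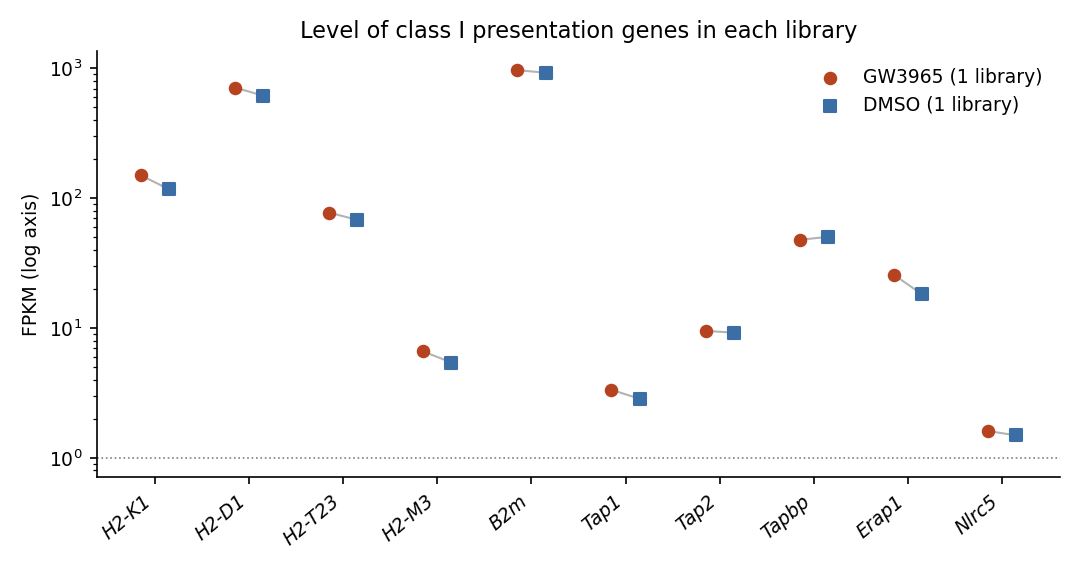
FPKM of each class I presentation gene, on a log axis, in the GW3965 library (circles) and the DMSO library (squares), 1 library each. The levels run from 1.61 FPKM in GW3965 and 1.49 FPKM in DMSO for Nlrc5 to 970 FPKM in GW3965 and 926 FPKM in DMSO for B2m, and the order of the genes is the same in both. The dotted line marks 1 FPKM.

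The depth behind these values could be read from their decimals. A value is a whole number of reads divided by a whole number of bases and by the depth, and depths of 75287120 reads for GW3965 and 101866062 for DMSO turned 99.8% of measured rows into whole reads in both libraries at once, to within 0.0005 of a read beyond the rounding of the printed value. All 10 members were among them. Read numbers below are the smallest that give both values, so the 95% intervals, exact and conditional on the summed reads, are as wide as the data allow. Such intervals hold the error of counting alone, not the spread between animals or cultures. Levels of different genes, where set side by side, also rest on the length used for each gene, which the labels do not state. The shift of such a ratio between the libraries does not depend on those lengths.

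The light chain and the classical heavy chains were among the most abundant transcripts of the macrophages. B2m, which every class I heavy chain needs to reach the surface, had 970 FPKM in GW3965 and 926 FPKM in DMSO, from 55344 reads in GW3965 and 71471 in DMSO. It ranked 31st of the measured rows in GW3965 and 26th in DMSO. Its ratio was 1.05 (95% counting interval 1.04 to 1.06), and its centred log2 ratio of -0.18 was at the 13th percentile of measured rows. H2-D1, a classical heavy chain, had 712 FPKM in GW3965 and 616 FPKM in DMSO and ranked 38th in both libraries. The ratio was 1.16 (1.14 to 1.17), with a centred log2 ratio of -0.03 at the 40.3rd percentile. H2-K1, the other classical heavy chain, had 150 FPKM in GW3965 and 117 FPKM in DMSO, a ratio of 1.29 (1.25 to 1.32). With a centred log2 ratio of 0.12, at the 78.5th percentile, it had the highest ratio of the 4 heavy chains among the 10 genes.

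The nonclassical heavy chains lay close to the median row. H2-T23 encodes the Qa-1 molecule, which presents leader peptides of other class I chains to receptors of natural killer cells. It had 77.5 FPKM in GW3965 and 68 FPKM in DMSO, a ratio of 1.14 (1.11 to 1.17). Centred, its log2 ratio was -0.06. H2-M3, which presents formylated peptides of bacteria and mitochondria, had 6.6 FPKM in GW3965 and 5.42 FPKM in DMSO. With 651 reads in GW3965 and 723 in DMSO its ratio was 1.22 (1.09 to 1.36), and its centred log2 ratio was 0.00, at the 50.1st percentile.

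The makeup of the heavy chain pool, which no scaling of a library can move, was nearly the same in both. H2-D1 made up 75.2% of the summed FPKM of the 4 heavy chains in GW3965 and 76.4% in DMSO. H2-K1 made up 15.9% in GW3965 and 14.5% in DMSO, H2-T23 8.19% in GW3965 and 8.44% in DMSO, and H2-M3 0.698% in GW3965 and 0.672% in DMSO. H2-K1 per H2-D1 was 0.211 in GW3965 and 0.19 in DMSO, a shift of 1.11-fold (1.08 to 1.14 from counting error). B2m per summed heavy chain was 1.03 in GW3965 and 1.15 in DMSO. The light chain was thus close to the summed heavy chains in level in both libraries.

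The promoters of H2-K1, H2-D1, H2-M3 and B2m carry the same pair of short motifs at the same spacing. They are shown because B2m pairs with each of these heavy chains and the levels are set side by side above. Promoters came from RefSeq on GRCm38.p6, where 8 of the 10 members have an entry, and the 250 bases before each RefSeq gene start were searched. The letters TGACG, the core of the X2 box that CREB and ATF factors bind, are followed by ATTGG, the reverse of the CCAAT box that NF-Y binds, with 25 bases from the first letter of one to the first letter of the other. The X2 box and the CCAAT box belong to the module through which Nlrc5 acts. The 30 bases of each pair lie at chr17:34000359-34000388 on the minus strand for H2-K1, chr17:35262993-35263022 on the plus strand for H2-D1, chr17:37270188-37270217 on the plus strand for H2-M3 and chr2:122147609-122147638 on the plus strand for B2m. The RefSeq start of H2-D1 used here, base 35263094, lies downstream of its GENCODE start at base 35262730, so the H2-D1 pair is inside the gene span of GENCODE. Capitals mark TGACG and ATTGG.
H2-K1: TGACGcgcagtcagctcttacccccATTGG
H2-D1: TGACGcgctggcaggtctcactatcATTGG
H2-M3: TGACGcttctccaattcccattctaATTGG
B2m: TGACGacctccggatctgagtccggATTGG

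The pair at this spacing, on the strand of the gene, was found in 18 of 32851 promoters, or 0.0548%, and these belong to 15 genes. The spacing was read from the members themselves, so the share is a description and not a test. Between the capitals, H2-K1 and H2-D1 shared 13 of 20 bases, while B2m shared 2 with H2-D1, 3 with H2-K1 and 5 with H2-M3. On either strand, TGACG alone was found in 17.8% of promoters and CCAAT alone in 33.8%. The promoters of H2-T23, Tap1, Tapbp and Erap1 did not hold the pair in this window. For Tapbp the RefSeq start used, base 33919478, lies downstream of its GENCODE start at base 33915899. For H2-T23, on the minus strand, base 36032701 was used, while its GENCODE span ends at base 36032855. The Tapbp window thus lies inside the gene span of GENCODE, and the H2-T23 window partly so. Tap1 held TGACG 86 bases before its start.

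Farther upstream, the classical heavy chains and B2m differ in which of the searched spellings they hold. The H2-K1 and H2-D1 windows that start 100 bases before TGACG were identical at 128 of 140 bases, or 91.4%, against 36.4% for H2-K1 and B2m. The windows are shown for H2-K1 (chr17:34000349-34000488, minus strand) and B2m (chr2:122147509-122147648, plus strand), where they lie outside annotated exons of these genes. Capitals mark matches on either strand to AGGTCA, to the kappaB site of NF-kappaB, to the interferon element GAAANNGAAA, to TGACG and to CCAAT.
H2-K1: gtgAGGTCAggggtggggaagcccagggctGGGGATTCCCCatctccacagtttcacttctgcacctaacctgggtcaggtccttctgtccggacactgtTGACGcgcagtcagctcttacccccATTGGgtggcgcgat
B2m: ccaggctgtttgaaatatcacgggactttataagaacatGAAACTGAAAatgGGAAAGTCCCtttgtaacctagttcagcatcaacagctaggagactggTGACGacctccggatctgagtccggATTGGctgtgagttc

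In H2-K1 overlapping kappaB matches make up one palindrome, and in B2m the kappaB match stands beside an interferon element. AGGTCA is the motif of nuclear receptors, and the RXR beta protein, a partner of LXR, was first cloned through its binding to the region of class I promoters that holds it. AGGTCA was found before the RefSeq starts of H2-K1, H2-D1 and H2-T23 and in 14% of all promoters. In H2-D1 and H2-T23 the match lies inside the gene span of GENCODE. The kappaB site was in 7.25% and GAAANNGAAA in 2.98%. Such matches are letters only, and no binding was measured.

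**Figure D2:**
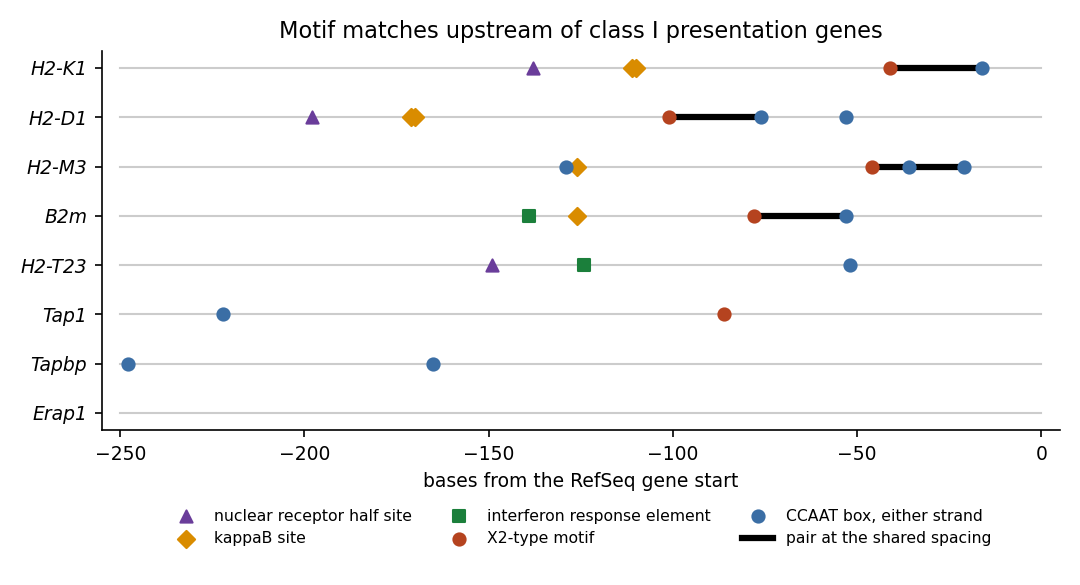
Motif matches in the 250 bases before the RefSeq start of the 8 class I genes with a promoter entry, 1 row per gene, with distance from the start in bases on the horizontal axis. For H2-K1, which has more than 1 RefSeq start, the start farthest upstream is used. The black bar joins the X2-type motif and the CCAAT box that lie 25 bases apart in H2-K1, H2-D1, H2-M3 and B2m.

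The peptide transporter subunits were low beside B2m, H2-D1, H2-K1 and H2-T23, while Tap2 stood above the heavy chain H2-M3 in both libraries. Tap1, an ATP binding subunit, had 3.34 FPKM in GW3965 and 2.85 FPKM in DMSO, a ratio of 1.17 (1.09 to 1.26). Centred, its log2 ratio was -0.07. Tap2, its partner, had 9.5 FPKM in GW3965 and 9.22 FPKM in DMSO. Its ratio was 1.03 (0.97 to 1.09), with a centred log2 ratio of -0.20 at the 9.74th percentile. The protein works as a dimer of both subunits, and Tap1 per Tap2 was 0.351 in GW3965 and 0.308 in DMSO, a shift of 1.14-fold (1.04 to 1.25).

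Tapbp and Erap1 marked the ends of the group. Tapbp, which bridges the transporter and the heavy chain, had 47.8 FPKM in GW3965 and 50.4 FPKM in DMSO, a ratio of 0.948 (0.925 to 0.972). It was the single member below 1 as deposited, and its centred log2 ratio of -0.32 was at the 3.08th percentile, below the central 90% of measured rows (-0.27 to 0.28). Erap1 had 25.8 FPKM in GW3965 and 18.2 FPKM in DMSO, a ratio of 1.42 (1.37 to 1.46). Its centred log2 ratio of 0.24, at the 93rd percentile, was the highest of the 10 and within that central range. Erap1 per Tapbp was 0.54 in GW3965 and 0.362 in DMSO, a shift of 1.49-fold (1.43 to 1.55). This contrast inside the pathway does not depend on how the libraries are scaled, and it was chosen because the genes are the extremes.

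Nlrc5, which switches on class I genes, had the lowest level of the 10. It had 1.61 FPKM in GW3965 and 1.49 FPKM in DMSO, from 1214 reads in GW3965 and 1517 in DMSO. Its ratio was 1.08, with an interval from 1 to 1.17, and its centred log2 ratio was -0.17. The order of levels was the same in both libraries: B2m, H2-D1, H2-K1, H2-T23, Tapbp, Erap1, Tap2, H2-M3, Tap1 and Nlrc5. No neighbours in that order can be set against a spread between animals, which single libraries do not give.

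**Figure D3:**
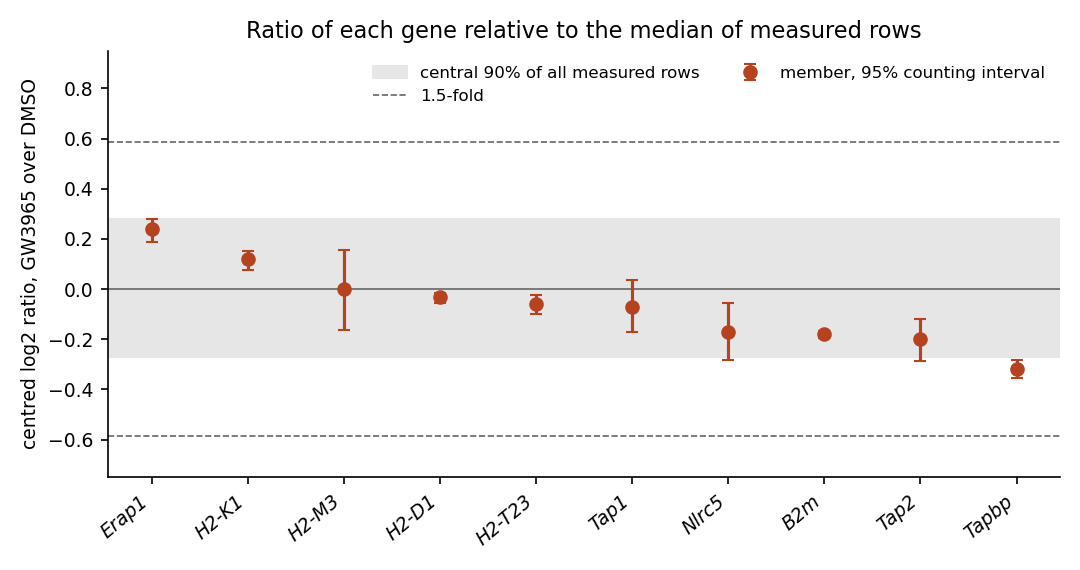
Centred log2 ratio of GW3965 over DMSO for each class I gene, highest first, with bars as long as the 95% counting interval of its ratio. The grey band holds the central 90% of measured rows, from -0.27 to 0.28, and the dashed lines mark 1.5-fold; Tapbp, at -0.32, is the one gene outside the band.

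Class I heavy chains form a family of close copies, and the sources used here do not say how the authors treated reads that match several places. Transcripts of GENCODE release M21, on the same GRCm38 build that the submitters' processing notes name, were cut into all windows of 50 and of 100 bases to see which also occur in a transcript of another gene, on either strand. At 50 bases 9.63% of the windows of H2-K1, 12.8% of H2-D1, 14.5% of H2-T23 and 0.576% of H2-M3 were shared. At 100 bases the shares were 0.957% for H2-K1, 3.59% for H2-D1, 3.15% for H2-T23 and 0% for H2-M3. H2-K1 and H2-D1 shared 141 windows of 50 bases with each other. B2m shared none at either length. The largest share at 100 bases was that of Tapbp, 14.8%, nearly all with Gm19412, followed by Erap1 at 10%, all of it with Cast. At 50 bases Tapbp shared 23.2%, Tap2 11.6% and Erap1 10.7%. Values of H2-K1, H2-D1, H2-T23, Tap2, Tapbp and Erap1, and the ratio of Erap1 to Tapbp, are thus uncertain to the extent that shared reads were counted or dropped. The class I pseudogene row H2-K2, named after its value was seen, stood at 34.2 FPKM in GW3965 and 25.4 FPKM in DMSO. Cast, also named afterwards, had 37.5 FPKM in GW3965 and 30.9 FPKM in DMSO, a centred log2 ratio of 0.03 beside the 0.24 of Erap1.

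**Figure D4:**
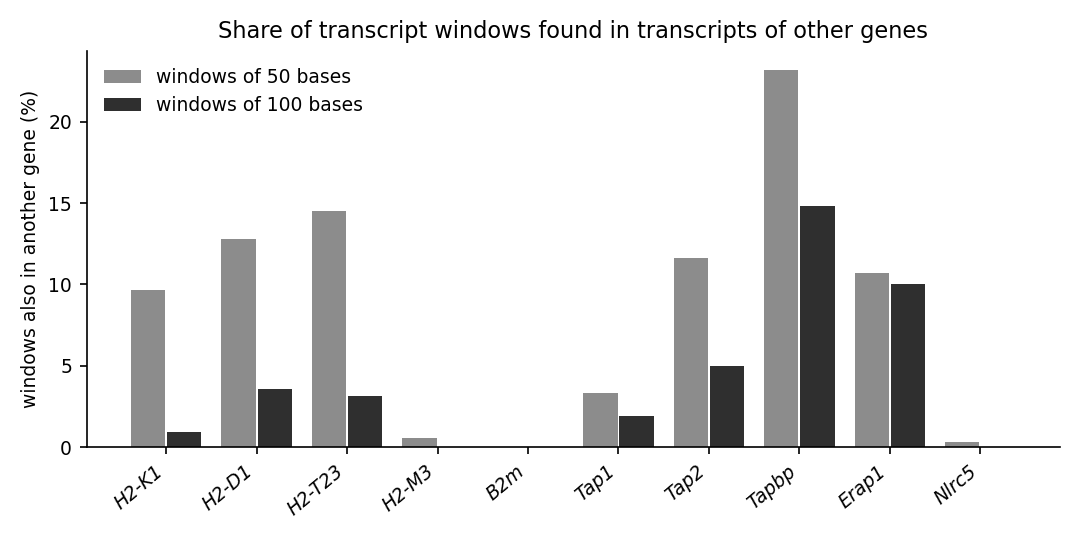
Share of all 50-base (grey) and 100-base (black) transcript windows of each class I gene that also occur in a GENCODE transcript of another gene, in percent. For the 4 heavy chains the share at 100 bases stays under 4%, while Tapbp and Erap1 reach 14.8% and 10%.

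The genes lie at these places on GRCm38. On chromosome 17 are Tapbp (chr17:33915899-33929292), H2-K1 (chr17:33996017-34000347), Tap1 (chr17:34187553-34197225), Tap2 (chr17:34203527-34216321), H2-D1 (chr17:35262730-35267499), H2-T23 (chr17:36029773-36032855) and H2-M3 (chr17:37270220-37274484), all within the MHC region or next to it. H2-K1 and H2-T23 are on the minus strand and the other 5 on the plus strand. Outside that region, on plus strands, are B2m (chr2:122147686-122153083), Erap1 (chr13:74639568-74693201) and Nlrc5 (chr8:94434356-94527272). All 10 are annotated as protein coding.

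Other class I heavy chains were read from a longer list. Of 24 rows found for this list 8 were measured, and 0 of the 8 passed 1.5-fold in either direction, centred or not, with a median centred log2 ratio of 0.00. With 3.46% of all measured rows higher and 0.0757% lower as deposited, a count of 0 or 1 among so few genes does not set a list apart, here or in the lists that follow. H2-T24 had 31 FPKM in GW3965 and 22.9 FPKM in DMSO, a ratio of 1.35 (1.30 to 1.41). Mr1, which presents vitamin metabolites to mucosal T cells, had 3.40 FPKM in GW3965 and 2.43 FPKM in DMSO, a ratio of 1.40 (1.30 to 1.5). Fcgrt, the neonatal Fc receptor chain, had a ratio of 1.05 (0.931 to 1.19), and H2-T10 one of 1.01 (0.827 to 1.22).

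The loading complex also draws on general chaperones of the endoplasmic reticulum and on Tapbpl, a relative of tapasin. Of 7 such partner genes, all measured, 6 had a ratio above the median row and 0 passed 1.5-fold, with a median centred log2 ratio of 0.16. Calr, the calreticulin that holds glycosylated heavy chains, had 185 FPKM in GW3965 and 139 FPKM in DMSO, a ratio of 1.33 (1.32 to 1.35). Pdia3, the disulfide isomerase bound to tapasin, had 76.4 FPKM in GW3965 and 54 FPKM in DMSO, a ratio of 1.41 (1.39 to 1.45). Canx and Pdia6 had centred log2 ratios of 0.16 and 0.17, and Tapbpl, the one below the median row, had -0.08.

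On the supply side of peptides, none of the 5 immunoproteasome genes was above the median row. Psmb8 had 13 FPKM in GW3965 and 11.6 FPKM in DMSO, Psmb9 1.63 FPKM in GW3965 and 1.59 FPKM in DMSO, and Psmb10 16.7 FPKM in GW3965 and 16.3 FPKM in DMSO. These catalytic subunits replace Psmb5, Psmb6 and Psmb7 in cells that have met interferon. Psmb8 per Psmb5 was 0.195 in GW3965 and 0.205 in DMSO, a shift of 0.952-fold (0.88 to 1.03). Psmb9 per Psmb6 was 0.0378 in GW3965 and 0.0407 in DMSO (0.929-fold, 0.817 to 1.06), and Psmb10 per Psmb7 was 0.368 in GW3965 and 0.456 in DMSO (0.809-fold, 0.743 to 0.88). In both libraries the constitutive subunit was the more abundant of each pair.

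Among the other trimming peptidases 1 of 7 measured genes passed 1.5-fold as deposited and 0 after centring. That gene was Lnpep, an endosomal relative of Erap1, with 43.7 FPKM in GW3965 and 28.2 FPKM in DMSO, a ratio of 1.55 (1.51 to 1.58), or 0.37 as a centred log2 ratio. Lnpep per Erap1 was 1.69 in GW3965 and 1.55 in DMSO. The cytosolic peptidase Tpp2 had a ratio of 1.47 (1.41 to 1.52), and Npepps one of 1.10 (1.07 to 1.14).

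Of the regulators of class I genes 0 of 15 measured were called on either scale, beside the same shares of all rows, and their median centred log2 ratio was -0.04. Irf1, an interferon-induced activator of Tap1 and of class I promoters, had 3.76 FPKM in GW3965 and 4.04 FPKM in DMSO, a ratio of 0.929 (0.863 to 0.999). Rela, the NF-kappaB subunit, had a ratio of 0.954 (0.849 to 1.07), and Irf2 one of 1.08. Upstream of them, 1 of 7 measured interferon receptor and kinase genes was higher as deposited and 0 after centring. Ifngr1, the ligand-binding chain of the interferon gamma receptor, had 23.1 FPKM in GW3965 and 14 FPKM in DMSO. The Ifngr1 ratio was 1.66 (1.59 to 1.72), or 0.45 as a centred log2 ratio, above that central range. Ifngr2, its partner, had a ratio of 1.10 (1.07 to 1.13). The interferon genes of this list, Ifnb1 and Ifng, were not measured.

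**Figure D5:**
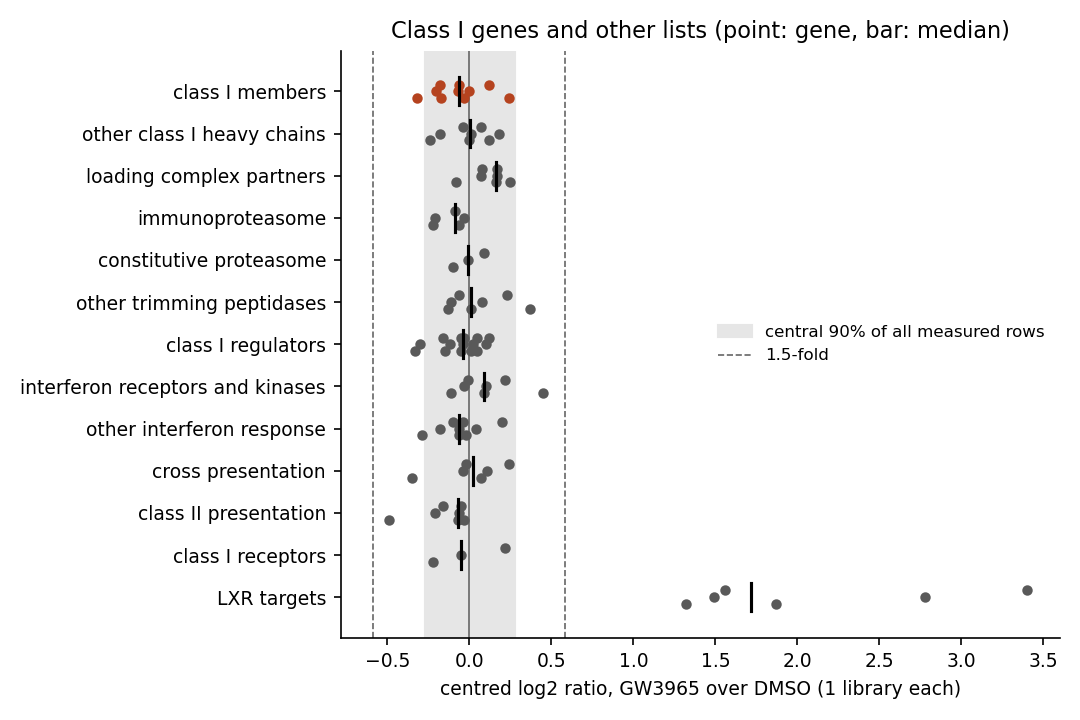
Centred log2 ratio of GW3965 over DMSO for every measured gene of the class I group (top row) and of 12 other lists, with the median of each list as a black bar; the grey band holds the central 90% of measured rows and the dashed lines mark 1.5-fold. The class I genes lie between -0.32 and 0.24, while the 6 LXR targets lie between 1.32 and 3.40.

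The cells carried the defining genes of macrophages. All 10 macrophage marker rows were measured, with Lyz2 at 4822 FPKM in GW3965 and 4052 FPKM in DMSO and Csf1r at 42.8 FPKM in GW3965 and 43.3 FPKM in DMSO. None of the 5 markers of resident peritoneal macrophages was measured, with at most 0.857 FPKM in GW3965 and 0.607 FPKM in DMSO. Class I is carried by nearly all nucleated cells, so other cells in the sample could add to these rows, and in a bulk sample fewer cells of a type and less RNA per cell cannot be told apart. None of 6 T and NK cell markers was measured (0.0426 to 0.185 FPKM in GW3965, 0.0378 to 0.144 FPKM in DMSO), and 1 of 6 dendritic cell markers was, Itgax, which macrophages also express. Of 6 B cell markers 3 were measured, with a summed level over the list of 68.4 FPKM in GW3965 and 12 FPKM in DMSO. Most of it was Ighm, at 64.4 FPKM in GW3965 and 9.26 FPKM in DMSO. Cd79a had 1.6 FPKM in GW3965 and 1.03 FPKM in DMSO, and Cd79b 1.28 FPKM in GW3965 and 0.925 FPKM in DMSO. All 3 were higher in GW3965 as deposited, though the counting interval of the Cd79b ratio, 0.919 to 2.07, included 1. Centred, the log2 ratios were 2.43 for Ighm, 0.11 for Cd79a and -0.00 for Cd79b, and only Ighm passed 1.5-fold. Ms4a1 and Pax5 were among those not measured. Of 7 mesothelial and fibroblast markers 5 were measured, with sums of 26.9 FPKM in GW3965 and 17.3 FPKM in DMSO. Of 6 neutrophil markers 1 was, S100a8, with sums of 4.38 FPKM in GW3965 and 3.7 FPKM in DMSO. The part of these cells in the class I values was not tested.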

How the data were processed

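FPKM values were deposited by the authors in 1 table, with a column for each library. STAR 2.3.0, HTSeq 0.5.4p3 and the build mm10 (GRCm38) appear in the submitters' processing notes, without a role or an order. Per the labels' protocols, a Qiagen kit was used to isolate RNA and an Illumina TruSeq RNA kit to prepare libraries. Annotation, strand setting and the handling of reads with several matches are not stated there, so overlapping and antisense genes cannot be told apart. Ratios are log2((GW3965 + 1)/(DMSO + 1)) of deposited FPKM, with a mean of at least 1 FPKM for a measured row and 1.5-fold for a call. The members, the 20 lists and the limits were chosen with earlier results of these data known. From each other list, the genes considered for naming were up to 4 with the largest absolute centred log2 ratio and the most abundant. Of 179 list entries, 10 matched no symbol in the table. Depths and whole reads were recovered from the value steps and the recovery was tested on simulated data. Intervals are exact Clopper-Pearson (95%), or normal on the log scale for shifts of a ratio between genes. With 1 ratio per gene there is no pattern across samples, so no gene was named for likeness. Calculations used scipy 1.17.1, pandas 2.3.3 and numpy 2.4.6 in Python 3.11.15, and figures matplotlib 3.10.9. Alternatives changed the pseudocount, filter, scaling or fold limit.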

Additional observations from a re-analysis of the deposited data

How the results depend on the processing

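No paired analysis was possible because there is a single library in each group. A count of 0 class I genes lower or higher by 1.5-fold held with pseudocounts 0.1 and 0.5 and no filter on low values. It also held at a mean of at least 5 FPKM (8 genes left), with either centring, with the same upper quartile and at 2-fold. In that order, 8.61%, 4.98%, 0.972%, 4.43%, 1.38%, 1.45%, 1.4% and 0.984% of measured rows were higher. At most 0.336% were lower in any of these settings, so 0 of so few genes does not set them apart. Scaling to the same sum of FPKM made 2 genes higher (Erap1 and H2-K1), where 21.9% of measured rows were higher. A centred limit of 1.2-fold, chosen after seeing the data, made 1 lower (Tapbp) and 0 higher, where 5.31% of rows were lower. Against 0.18, the median log2 ratio of the 10 genes was -0.06 centred, -0.05 centred on rows that are not NONCODE, Gm or Rik rows, 0.42 with the same sum, -0.10 with the same upper quartile and 0.07 without the 4 H2 heavy chains. The first 4 settings move the whole table by construction. The last leaves out the heavy chains, whose log2 ratios of 0.19 to 0.36 were above those of every other member but Erap1. Why they stood higher was not tested. Among 646 single-gene values 265 moved by more than their counting error. No called value changed sign. Depth limits Nlrc5 and H2-M3 most.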

Other observations

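Class II presentation and cross presentation genes were measured as well. None of 7 measured class II genes stood above the median row, and 0 passed 1.5-fold, with a median centred log2 ratio of -0.07, and H2-DMa, at -0.49, was outside the central 90% of measured rows. H2-DMa, a subunit of the peptide editor of class II, had 1.90 FPKM in GW3965 and 2.44 FPKM in DMSO, a ratio of 0.778 (0.66 to 0.916). The class II chain H2-Ab1 had 4.98 FPKM in GW3965 and 4.63 FPKM in DMSO. The class II transactivator Ciita was not measured, with 0.457 FPKM in GW3965 and 0.339 FPKM in DMSO. Nlrc5 per Ciita was 3.53 in GW3965 and 4.39 in DMSO, a shift of 0.804-fold (0.65 to 0.995). Of 6 measured cross presentation genes 0 passed. Wdfy4, needed for cross presentation by dendritic cells, had a ratio of 1.43 (1.40 to 1.47), and the NADPH oxidase subunit Cybb one of 0.928 (0.903 to 0.954), or -0.35 as a centred log2 ratio, also outside that range.

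Macrophages also carry inhibitory receptors for class I. Pirb had 117 FPKM in GW3965 and 102 FPKM in DMSO. Lilrb4, of the same receptor family, had 567 FPKM in GW3965 and 412 FPKM in DMSO, a ratio of 1.38 (1.35 to 1.40). Of 15 rows for other interferon response genes 9 were measured, and 6, Ifit1, Ifit2, Ifit3, Mx1, Mx2 and Cxcl10, were not. Among the 9 measured 0 passed 1.5-fold, with a median centred log2 ratio of -0.06. They ran from -0.29 for Gbp3 to 0.20 for Oas1a. The LXR partners Rxra and Rxrb, named after their values were seen, had centred log2 ratios of -0.11 and -0.13.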
